A study of Mus musculus with 24 samples.

Results

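The proteasome is the large protease that degrades proteins tagged with ubiquitin. A barrel-shaped core particle of alpha and beta subunits cuts the protein, and a regulatory cap recognises, unfolds and feeds in the tagged substrate. Assembly chaperones build the core and are not part of the finished enzyme. Interferon can replace the catalytic beta subunits by those of the immunoproteasome, which is better known for supplying peptides to MHC class I molecules, and in muscle wasting with cancer the proteasome is known for the breakdown of muscle protein. In liver it takes part in ordinary protein turnover.

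The members were the probes whose annotated gene symbol starts with Psma, Psmb, Psmc, Psmd, Psme or Psmg. They numbered 26 genes on 27 probes, of 8726 genes with a symbol of their own on 10080 spots. They held 6 probes for alpha subunits of the core, 3 for beta subunits, 4 for ATPases of the cap, 7 for other cap subunits, 4 for assembly chaperones and 2 for other activators of the core. The last of the 27, Psmc3ip, encodes a cofactor of homologous recombination that carries the letters in its name and is no proteasome subunit. The immunoproteasome subunits Psmb8, Psmb9 and Psmb10 and its activators Psme1 and Psme2 were not named by any probe and were not analysed here. The same held for Psmb5 and Psmb7, so that Psmb6 was the one catalytic beta subunit measured, and the comparison of the constitutive with the immunoproteasome could not be made.

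Livers came from male C57Bl/6 mice of 8 weeks, wild type as far as the labels go. The tumor group had received 1E6 LL/2(LLC1) cells, a Lewis lung carcinoma line, under the skin, suspended in phosphate-buffered saline (PBS), and the PBS group an equal 300 µl volume with no cells. Livers were taken at 18, 72 and 192 h, and each of the 4 pairs a time joined a tumor liver with a PBS liver. Both RNAs of a pair were hybridised together, and again with the dyes exchanged, on 24 arrays in all. Whether each liver sample is 1 animal or a pool is not stated, so the p-values measure the spread between these pairs.

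Every value below is read as a log2 ratio of tumor over PBS liver, 0 meaning equal signal. The values were taken from the authors' deposited table and averaged over the dye-swapped arrays of a pair. Scale and direction are unstated in the sources used here. The direction rests on channel A of the scans being Cy3, and if it is Cy5, every sign turns. A pair counted where both of its arrays had a value. The arrays held between 977 and 8894 values each. The dye-swapped arrays of a pair correlated between -0.42 and 0.63 across probes, the lowest in pair 3 and the highest in pair 1 at 192 h. Besides that highest value, only pair 1 at 18 h (0.25) and pair 4 at 72 h (0.026) lay above 0. Every other pair correlated below 0, among them pair 3 at 18 h (-0.11). Of 15 hepatocyte markers listed, only Hnf4a, G6pc and Pck1 were on the array. They were measured on 19 to 24 arrays, with total signal in the brighter dye channel 3.02 to 10.7 times the background. Of 14 lymphocyte markers listed, 9 were on the array, at 1.63 to 1.91 times the background by the same measure.

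Which members could be read differed widely. A member was measured on 4 to 24 arrays (median 17). Its total signal in the brighter dye channel, as a median over arrays, was 1.72 to 4.04 times the local background. Psma3, an alpha subunit, was measured in all 12 pairs, and Psmb3, a beta subunit, in none. The 8 members that had at least 3 of 4 pairs at each time were tested, with the other probes that met the same rule, 1362 in all. They were Psma3, Psmb2 and Psmb6 of the core and Psmc1, Psmd2, Psmd3, Psmd4 and Psmd13 of the cap. Neither the assembly chaperones nor the other activators had enough pairs. The map of the members by pair shows how thin the measurement was.

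**Figure D1:**
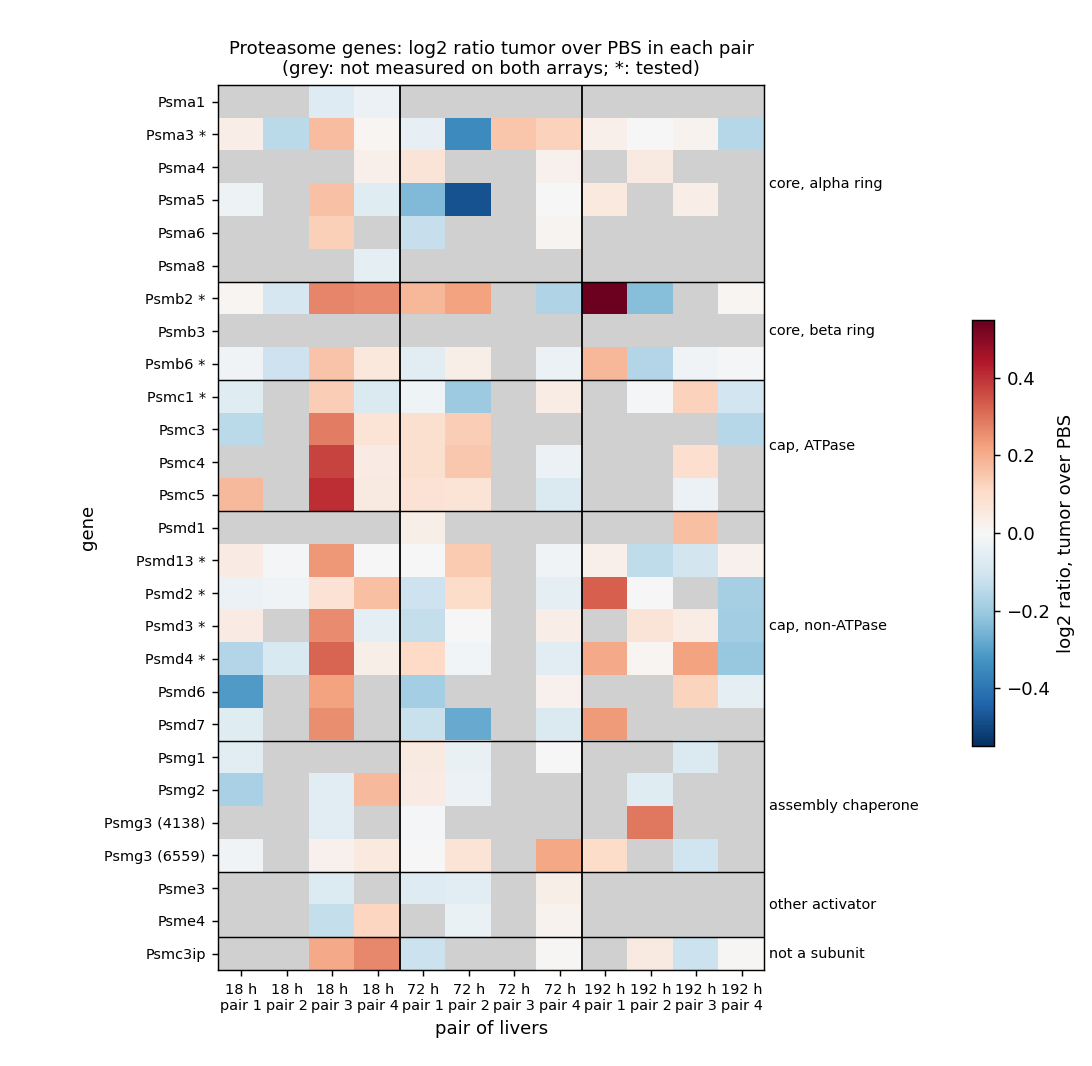
Log2 ratio of tumor over PBS liver for each of the 27 member probes (rows, grouped by their place in the proteasome) in each of the 12 pairs (columns, by time), as colour from blue (below 0) to red (above 0); grey cells were not measured on both arrays, and stars mark the 8 tested genes. The column of 18 h pair 3 is red in all 10 cap genes measured there, the column of 18 h pair 2 holds 6 cells, all below 0, and 72 h pair 3 holds Psma3 alone.

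No proteasome gene passed the test for a difference between tumor and PBS livers at any of the 3 times. With limma's moderated test and Benjamini-Hochberg adjustment, 0 of the 8 tested members and 0 of 1362 probes (0%) had an adjusted p under 0.05 at 18, 72 or 192 h. At an unadjusted p under 0.05, 0 of 8 members passed at each time, against 7.12% of all tested probes at 18 h, 5.21% at 72 h and 3.67% at 192 h. The smallest adjusted p among the members was 0.785 at 18 h, 0.995 at 72 h and 0.997 at 192 h. The data limit how large a change could have gone unseen. The 95% intervals of the tested members, as tumor over PBS fold, ran from 0.895 to 1.29 at 18 h, from 0.860 to 1.29 at 72 h and from 0.874 to 1.32 at 192 h. These intervals hold on the scale of the deposited table. Ratios computed from the deposited scans spread 2.40 times as wide over all measured members. From them the intervals of the same 8 genes ran from 0.676 to 1.45 fold over the 3 times. The scans also let Psma5 and Psmd7 be fitted, and with these the intervals reached 0.553 (Psma5 at 72 h) and 1.91 (Psmd7 at 18 h). That Psmd7 interval, from 1.02, lay wholly above 1 (limma p of 0.0400, adjusted 0.751). Psmd7 was the 1 of 10 members with an unadjusted p under 0.05 at 18 h in this fit, against 6.6% of all its probes.

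**Figure D2:**
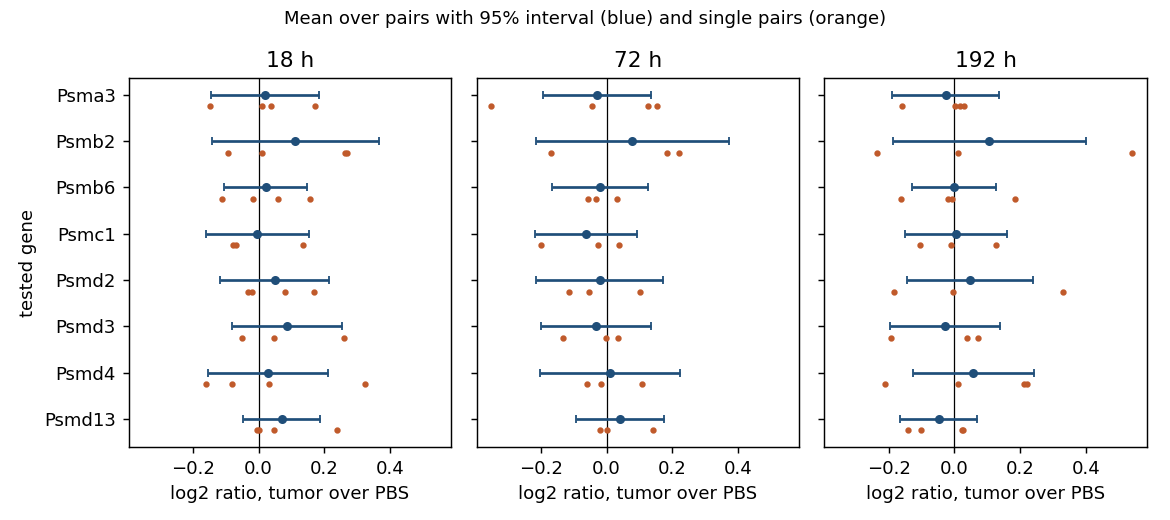
Log2 ratio of tumor over PBS liver (horizontal axis) of the 8 tested members (rows) at 18, 72 and 192 h (panels); blue points with bars are the means over 3 or 4 pairs with limma's 95% interval, and orange dots below them are the single pairs. Every interval includes 0, and Psmb2 has the widest at each time.

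In the core, Psma3 is a structural alpha subunit and the member measured most often. It stood at 0.038, -0.15, 0.17 and 0.011 in pairs 1 to 4 at 18 h. The 4 pairs read -0.044, -0.35, 0.15 and 0.13 at 72 h, and 0.029, 0.0027, 0.018 and -0.16 at 192 h. The pairs lay on both sides of 0 at each time, and the means were 0.018, -0.028 and -0.027 (SE 0.076 each, n = 4; limma adjusted p of 0.970, 0.995 and 0.997). Psmb6, the catalytic subunit of caspase-like activity that the immunoproteasome replaces by Psmb9, stood at -0.018, -0.11, 0.16 and 0.058 in pairs 1 to 4 at 18 h. It had -0.057, 0.031 and -0.033 in pairs 1, 2 and 4 at 72 h, and 0.18, -0.16, -0.021 and -0.0069 in pairs 1 to 4 at 192 h. Its pairs, too, crossed 0 at each time, and its mean over the times was -2.21e-05 (SE 0.035), with a fold interval of 0.948 to 1.05.

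Psmb2, a beta subunit without catalytic activity, had the highest mean of the tested members at each time. Its pairs 1 to 4 at 18 h read 0.0096, -0.093, 0.27 and 0.26. Pairs 1, 2 and 4 at 72 h read 0.18, 0.22 and -0.17, and pairs 1, 2 and 4 at 192 h read 0.54, -0.23 and 0.012. No time had all its pairs on the same side of 0, while 7 of its 10 pairs were above 0. The means were 0.11 ± 0.11, 0.079 ± 0.13 and 0.11 ± 0.13 (SE, n = 4, 3 and 3), and the mean of the times was 0.099 ± 0.073 (limma p of 0.205, adjusted 0.611). Psmb2 read 0.19 on average with the tumor RNA in Cy5 and 0.0074 with it in Cy3, so its distance from 0 came mainly from one dye orientation.

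Among the cap subunits, Psmc1 is one of the ATPases that unfold the substrate. It had -0.068, 0.13 and -0.078 in pairs 1, 3 and 4 at 18 h, -0.026, -0.20 and 0.039 in pairs 1, 2 and 4 at 72 h, and -0.0092, 0.13 and -0.10 in pairs 2 to 4 at 192 h. Its means of -0.0041, -0.062 and 0.0043 (SE 0.069, n = 3) were all smaller than the SE. Psmd4 is a receptor for ubiquitin chains. It had -0.16, -0.082, 0.32 and 0.032 in pairs 1 to 4 at 18 h, 0.11, -0.017 and -0.061 in pairs 1, 2 and 4 at 72 h, and 0.21, 0.011, 0.22 and -0.21 in pairs 1 to 4 at 192 h. Its pairs crossed 0 at every time and spread most at 18 and 192 h. Psmd2, a scaffold of the cap base, had -0.033, -0.019, 0.079 and 0.17 in pairs 1 to 4 at 18 h, -0.11, 0.10 and -0.052 in pairs 1, 2 and 4 at 72 h, and 0.33, -0.0035 and -0.18 in pairs 1, 2 and 4 at 192 h. Its pairs likewise crossed 0 at each time.

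Psmd3 and Psmd13 are subunits of the lid of the cap, the part that holds the deubiquitinase. Psmd3 had 0.047, 0.26 and -0.051 in pairs 1, 3 and 4 at 18 h, -0.13, -0.00067 and 0.036 in pairs 1, 2 and 4 at 72 h, and 0.071, 0.039 and -0.19 in pairs 2 to 4 at 192 h. Psmd13 had 0.045, -0.0049, 0.24 and 0.0011 in pairs 1 to 4 at 18 h, 0.0013, 0.14 and -0.021 in pairs 1, 2 and 4 at 72 h, and 0.027, -0.14, -0.10 and 0.023 in pairs 1 to 4 at 192 h. The highest 18 h value of both genes was that of pair 3. The 18 h means were 0.085 ± 0.074 for Psmd3 and 0.070 ± 0.053 for Psmd13 (SE), and Psmd13 had the smallest p of the 8 members at 18 h (limma p of 0.212, adjusted 0.785).

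The tested members leaned above 0 at 18 h and not later. At 18 h, 7 of 8 had a mean above 0, where 42.8% of all tested probes did, with a median of 0.038 over the members and -0.012 over all probes. At 72 h, 3 of 8 were above 0 (41.9% of all probes), and at 192 h 4 of 8 (45.3%). Without pair 3 the median over the members at 18 h was -0.013. Pairs 1 and 2 alone gave -0.048, with 2 of 8 above 0, and pairs 3 and 4 alone 0.11, with 8 of 8. The lean also changed with the scaling of the scans. At 18 h loess gave 9 of 10 members above 0, with a median of 0.070 beside -0.0044 over all probes. Normexp gave 4 of 10, with a median of -0.053 beside -0.054 over all probes. Median centring gave 2 of 10, with a median of -0.17 over the members and -0.12 over all probes. Over the mean of the 3 times 5 of 8 were above 0 (42% of all probes), with 0 of 8 at an unadjusted p under 0.05 (9.4% of all probes) and no call. The differences between the times gave no call either (0 of 1362 probes, 0%, in each). No member had an unadjusted p under 0.05 in these, against 1.69% of all probes for 72 h minus 18 h, 4.11% for 192 h minus 18 h and 3.52% for 192 h minus 72 h. All 8 members had a lower mean at 72 h than at 18 h, where 49.4% of all probes had a higher one. The smallest p among the members was 0.295 (limma, adjusted 0.9996). This count leans on pair 3 at 18 h, since pair 3 at 72 h was measured for Psma3 alone. Without pair 3 the 18 h median of -0.013 stood beside -0.020 at 72 h. Pairs 1 and 2 alone gave a lower median at 18 h (-0.048) than at 72 h (-0.0091). The mean was higher at 192 h than at 18 h in 2 of 8 members (51.8% of all probes) and higher at 192 h than at 72 h in 7 of 8 (52.6%). For 192 h against 18 h, Psmd13 had the smallest p of the members, with a difference of -0.12 ± 0.075 (SE; limma p of 0.142, adjusted 0.9996).

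The side of 0 on which the members lay differed from pair to pair, and the 4 pairs whose member median was furthest from 0, among pairs with more than 1 member measured, were 2 above 0 and 2 below. In pair 3 at 18 h, 17 of 22 measured members were above 0 with a median of 0.17, while 48% of all 6505 probes measured there were above 0, with a median of -0.0055. All 10 cap subunits measured in that pair were above 0 (median 0.26), and so were 5 of 6 core subunits (median 0.16), against 1 of 3 assembly chaperone probes and 0 of 2 other activators. The highest were 2 cap ATPases, Psmc5 at 0.40 and Psmc4 at 0.37. Of the 22 members, 15 were above 0 with the tumor RNA in either dye, where 23.6% of all probes were. In pair 1 at 192 h all 9 measured members were above 0 (median 0.18), where 45.3% of 1237 probes were, and 5 of the 9 were above 0 in both dye orientations (29.7% of all probes). In pair 2 at 18 h 0 of 6 members were above 0 (median -0.087; 41.4% of all probes). That count rested on the array with the tumor RNA in Cy3, where 0 of the 6 were above 0 (39.7% of all probes). With it in Cy5, 4 of the 6 were (51.4% of all probes). In pair 4 at 192 h 3 of 11 were above 0 (median -0.10; 53.6% of all probes), among them 1 of 7 cap subunits. There 3 of the 11 were above 0 with the tumor RNA in Cy5 (54% of all probes) and 0 with it in Cy3 (50.8% of all probes). These 4 pairs were picked out after their values had been seen, and no test was made of them. In the other pairs with more than 1 member the members lay on both sides of 0, with 5 of 16 above 0 in pair 1 and 14 of 19 in pair 4 at 18 h. At 72 h 10 of 23, 8 of 18 and 11 of 20 were above 0 in pairs 1, 2 and 4, and at 192 h 6 of 12 and 8 of 14 in pairs 2 and 3.

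**Figure D3:**
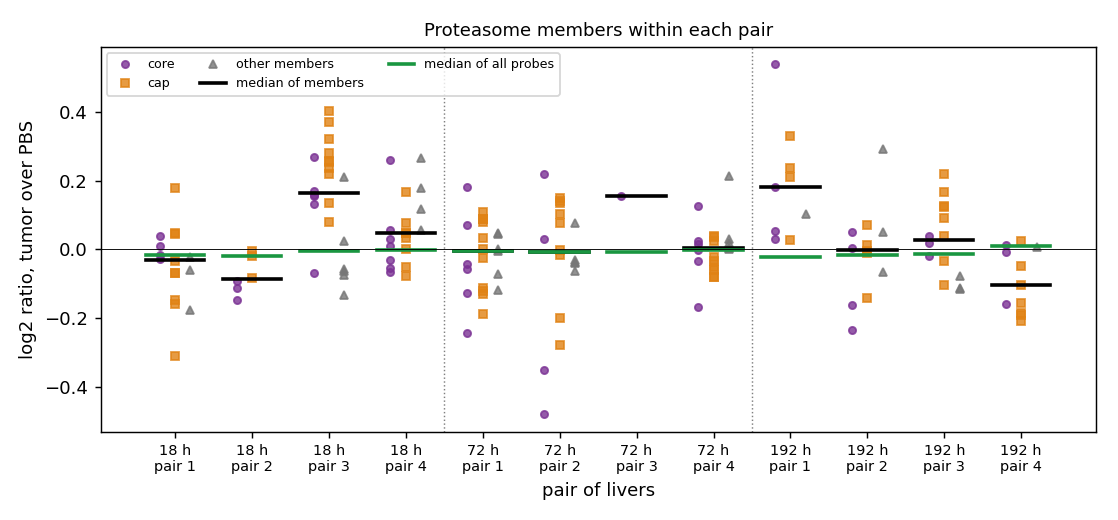
Log2 ratio of tumor over PBS liver (vertical axis) of each measured member in each pair (horizontal axis), with circles for core subunits, squares for cap subunits and triangles for other members; black bars are the median of the members and green bars the median of all probes measured in that pair. The member medians stand at 0.17 in 18 h pair 3 and 0.18 in 192 h pair 1, and at -0.087 in 18 h pair 2 and -0.10 in 192 h pair 4, while the green bars stay near 0.

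Markers of liver cell types stood off 0 in the 2 pairs where the members were high, and in other pairs too. In pair 3 at 18 h 0 of 3 hepatocyte markers were above 0 (median -0.24), against 6 of 8 Kupffer cell and macrophage markers (median 0.13), 3 of 4 neutrophil markers (median 0.28), 2 of 7 lymphocyte markers (median -0.041) and 2 of 4 endothelial and stellate markers (median -0.041). In pair 1 at 192 h the hepatocyte markers were above 0 in 0 of 2 (median -0.19), the Kupffer cell markers in 3 of 3 (median 0.46), the 1 neutrophil marker at 0.68, and the endothelial and stellate markers in 0 of 2 (median -0.12). Hepatocyte shifts of this size, and Kupffer cell shifts like that of pair 3 at 18 h, also occurred in pairs outside these 2. The Kupffer cell median of 0.46 and the neutrophil values of 0.28 and 0.68 did not. Outside these 2 pairs the highest medians were 0.15 for Kupffer cell and 0.19 for neutrophil markers. At 72 h the Kupffer cell markers were above 0 in 8 of 8 (median 0.13) in pair 1 and 7 of 7 (median 0.15) in pair 2. There 10 of 23 and 8 of 18 members were above 0. The hepatocyte medians were -0.32 in pair 1 and -0.62 in pair 4 at 18 h, where 5 of 16 and 14 of 19 members were above 0. The few hepatocyte markers differed among themselves. Over the 18 h pairs Pck1 was at -0.49 ± 0.20 and Hnf4a at -0.040 ± 0.072 (SE), neither passing the adjusted threshold. In the pairs where the members were low, the Kupffer cell markers were above 0 in 2 of 3 (median 0.081; pair 2 at 18 h) and 3 of 6 (median -0.0028; pair 4 at 192 h), and the hepatocyte markers in 0 of 1 (-0.096) and 1 of 3 (median -0.038). The part of these markers in the proteasome values was not tested. In whole liver, a change in the number of cells of a type and a change in RNA per cell cannot be told apart. The ratios of these 2 pairs correlated with spot brightness at 0.038 and -0.094 across probes.

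**Figure D4:**
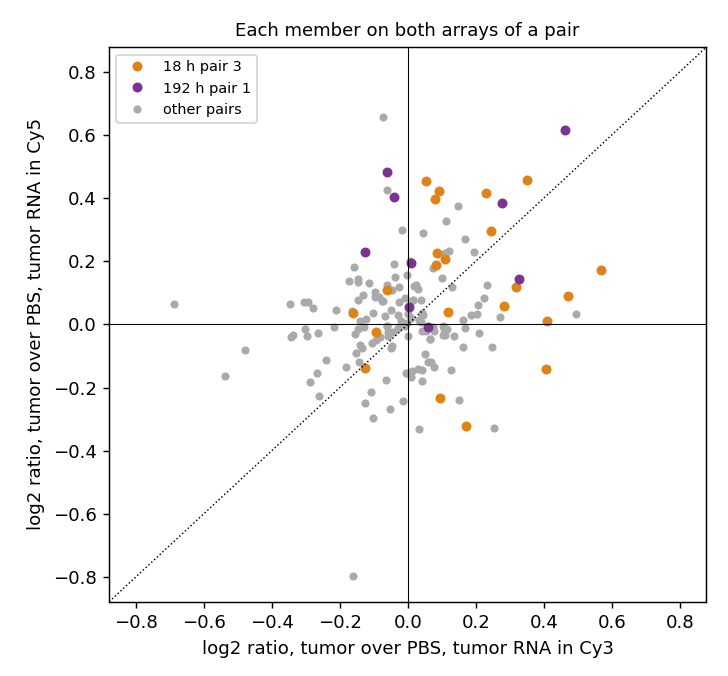
Log2 ratio of tumor over PBS liver of each member in each pair (171 points) with the tumor RNA in Cy3 (horizontal axis) and in Cy5 (vertical axis); orange points are 18 h pair 3, purple points 192 h pair 1, grey points all other pairs, and the dotted line marks equal values. In all, 94 of the 171 points have the same sign in both orientations, and 15 of the 22 orange points lie above 0 on both axes.

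Over all pairs the difference between dye orientations was the larger value in most members, as across the whole array. Noise of the arrays enters this difference and the mean ratio alike, and no test was made between them. In 13 of the 23 members with at least 3 pairs (56.5%), the half-difference between the dye orientations was larger than the mean ratio, as in 60% of 6648 probes of the whole array. The median size of that half-difference was 0.051 over the members, against a median size of 0.030 for their mean ratio. Over all probes the sizes were 0.048 and 0.036.

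The other members had too few pairs for the main test. A fit without the filter held 4766 probes and 20 members, and none of the members had an adjusted p under 0.05. The members with the smallest unadjusted p rested on few pairs. Psmc5, a cap ATPase, had 0.18, 0.40 and 0.047 in pairs 1, 3 and 4 at 18 h, with a mean of 0.21 ± 0.072 (SE; limma p of 0.0211, adjusted 0.723). All 3 pairs lay above 0. Psma5, an alpha subunit, had -0.24, -0.48 and -0.0022 in pairs 1, 2 and 4 at 72 h, with a mean of -0.24 ± 0.084 (limma p of 0.0194, adjusted 0.871). Psmd7, a lid subunit, had 0.24 in 1 pair at 192 h and between -0.28 and -0.080 in 3 pairs at 72 h, a difference of 0.40 ± 0.15 (limma p of 0.0359, adjusted 0.9996, where 4.51% of all probes had an unadjusted p under 0.05). The lone 192 h pair has no spread of its own, so this SE assumes that it varies like the other times. The recombination cofactor Psmc3ip had the smallest p, with 0.21 and 0.26 in pairs 3 and 4 at 18 h (mean 0.24 ± 0.061; limma p of 0.00568, adjusted 0.723). In this fit 6.23% of all probes had an unadjusted p under 0.05 at 18 h and 5.27% at 72 h.

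Among the assembly chaperones, Psmg1 and Psmg2 form a dimer that starts the alpha ring. Psmg1 ranged from -0.078 to 0.049 over 5 pairs and Psmg2 from -0.18 to 0.18 over 6. The 2 probes of Psmg3, another chaperone of ring assembly, disagreed at 192 h, at 0.29 in 1 pair for one and -0.0046 over 2 other pairs for the second. Of the other activators, Psme3, the nuclear activator of the core, ranged from -0.075 to 0.030 over 4 pairs, and Psme4 from -0.13 to 0.12 over 4. Neither had a complete pair at 192 h.

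Genes listed as partners of the proteasome gave no call. Of 55 partners listed (ubiquitin enzymes, shuttle factors and regulators), 22 were on the array and 5 were tested, and 0 passed the adjusted threshold at any time (0% of all probes). At 18 h 1 of the 5 was above 0, with a median of -0.017 beside -0.012 over all probes. Sem1, the small cap subunit that the symbol rule misses, was at 0.0054 ± 0.040 at 18 h, -0.068 ± 0.046 at 72 h and -0.019 ± 0.040 at 192 h (SE). Rad23b, which shuttles tagged proteins to the cap, was at -0.23 ± 0.11 at 18 h with 1 of 4 pairs above 0 (limma p of 0.0678, adjusted 0.762). Zfand5, an activator of the proteasome, was at 0.15 ± 0.087 at 72 h with 3 of 3 pairs above 0 (limma p of 0.112, adjusted 0.958). The ubiquitin-conjugating enzyme Ube2r2 was at -0.073 ± 0.047 at 18 h, where it was furthest from 0. Txnl4a, furthest from 0 at 72 h, was at 0.070 ± 0.057 there. It was on the list but is not a ubiquitin enzyme, shuttle factor or regulator of the proteasome. The partner counts and the median above include it. Of the MHC class I list 1 gene of 4 on the array was tested, the chaperone Canx, at -0.26 ± 0.11 at 18 h with 1 of 4 pairs above 0 (limma p of 0.0374, adjusted 0.626). Of the interferon list 1 gene of 15 was tested, the transcription factor Irf8, at 0.047 ± 0.061 at 18 h, 0.084 ± 0.061 at 72 h and 0.012 at 192 h.

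The promoters of 3 members are shown to give the sequence before the start of genes from the core and the cap. The RefSeq table of promoters, on mouse build GRCm38.p6, held 20 of the 26 genes. In the 250 bases before the annotated start, 6 motifs were searched on both strands. The ETS core CCGGAA was in 11 of 20 members (55%), against 12.2% of the 27025 promoters of the table, coding or not. This motif was picked out after the counts of all 6 had been seen, first in a window that also held the bases just after the start. The NF-Y box CCAAT was in 8 (40%, against 34.5%), the GC box GGGCGG in 8 (40%, against 32.9%), and the antioxidant response element core TGACNNNGC in 1 (5%, against 10.1%). Its relaxed form TGANNNNGC, which includes every match of the stricter one, was in 7 (35%, against 35.1%). The STAT palindrome TTCCNGGAA, which can overlap the ETS core, was in 0 of 20 (0.914% of all). The promoters below belong to the member measured in every pair, the catalytic beta subunit and a cap subunit with the ETS core, all on the plus strand, with the named match in capitals.
Psma3 promoter: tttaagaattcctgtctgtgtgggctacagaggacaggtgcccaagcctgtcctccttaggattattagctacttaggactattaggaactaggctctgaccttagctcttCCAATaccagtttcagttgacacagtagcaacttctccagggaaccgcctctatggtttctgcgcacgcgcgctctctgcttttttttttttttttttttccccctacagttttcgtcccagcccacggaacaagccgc
Psmb6 promoter: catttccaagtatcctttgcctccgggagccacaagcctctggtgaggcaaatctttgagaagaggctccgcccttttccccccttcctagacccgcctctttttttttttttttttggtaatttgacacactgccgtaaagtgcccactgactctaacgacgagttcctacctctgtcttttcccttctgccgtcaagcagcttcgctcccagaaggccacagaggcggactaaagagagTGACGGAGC
Psmd13 promoter: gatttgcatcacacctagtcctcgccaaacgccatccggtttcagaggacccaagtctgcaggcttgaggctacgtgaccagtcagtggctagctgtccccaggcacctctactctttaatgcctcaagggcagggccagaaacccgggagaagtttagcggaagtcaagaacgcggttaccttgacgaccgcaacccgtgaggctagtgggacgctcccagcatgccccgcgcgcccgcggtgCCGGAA
The Psma3 stretch is chr12:70974373-70974622 and holds CCAAT starting 139 bases before the start. The Psmb6 stretch is chr11:70525107-70525356 and ends in the antioxidant response element core, 9 bases before the start, the one such match among the members. The Psmd13 stretch is chr7:140882144-140882393 and ends in CCGGAA, 6 bases before the start. All 3 genes lay above 0 in pair 3 at 18 h (0.17, 0.16 and 0.24), as did each of the 8 tested members. Over the other pairs these 3 genes lay on both sides of 0. A link between motif and ratio was not tested. A match of letters is a description of the window and no evidence that a factor binds there.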

How the data were processed

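The values used are the log2 ratios of the authors' deposited table of the series, 10080 probes on 24 arrays. Their scale and direction are unstated. Block-wise loess ratios of total intensity from the scans had 0.770 to 1.28 times the spread of the table (r between 0.584 and 0.910). The table had array medians between -0.033 and 0.0095, and arrays of both dye orientations were already turned alike. The direction, tumor over PBS, rests on channel A being Cy3, which no source used here states; if it is Cy5, every sign turns. Each array also has 3 scans, with spot intensity already corrected for background and a saturation fraction, per the file headers. They served as alternatives, with loess, median centring or normexp. The image software is not given in the sources used here.

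Symbols came from the platform annotation (9066 probes with 1 symbol, 12 with several, 1002 with none listed), updated by Entrez identifier through RefSeq, which all 27 members matched. Dye swaps were averaged to 1 value a pair. Probes with at least 3 of 4 pairs at each time were tested with limma 3.58.1 (R 4.3.3, lmFit and eBayes, 1 coefficient a time, two-sided, Benjamini-Hochberg over 1362 probes, threshold 0.05). The fit was checked on simulated data. Members, lists and motifs were chosen with earlier results of these data known. All members could be named; of the partner lists, the 3 of smallest p in each direction at each time. Replicate numbers were not used to pair the samples across times in the main fit. Of 12 correlations between same-numbered pairs, 5 were over 0.1 (range -0.318 to 0.492). Pairs of different numbers were not correlated, so these values cannot decide whether the numbers mark a pairing.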

Additional observations from a re-analysis of the deposited data

Results flagged for a closer look

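Psma3 at 192 h had 1 pair far from the others. Pair 4 read -0.158, while pairs 1 to 3 read 0.029, 0.0027 and 0.018, and its gap to the nearest pair was 0.858 of the whole range, above the critical value of 0.829 for 4 values. In all, 20 such groups of 4 pairs were looked at, and chance alone marks about 1 in 20. The same pair held 8 of its 11 measured members below 0.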

How the results depend on the processing

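Under 25 other settings no member passed the adjusted threshold, the smallest adjusted p of a member being 0.235. The settings were the scans with loess, median centring or normexp, the table re-centred, no filter or a stricter one, dim probes left out, pairs with 1 array, robust eBayes, the replicate block, the numbers 1 and 2 or 3 and 4 alone, each pair left out, and, chosen after seeing the data, the brightness trend removed. With no filter on pairs, 1 probe was called at 72 h, 2 at 192 h, 3 for the mean of the times, 2 for 192 h against 18 h and 3 for 192 h against 72 h, none of them members. With the replicate block 1 probe was called for the mean of the times, and leaving out single pairs gave between 0 and 1 there, the 1 without pair 4 at 72 h. With pairs left out the median over the tested members ranged from -0.013 (without pair 3) to 0.077 at 18 h, from -0.020 to 0.0083 at 72 h, from -0.054 (without pair 1) to 0.057 (without pair 4) at 192 h and from -0.0077 to 0.024 for the mean of the times. Median centring of the scans gave -0.17 at 18 h and -0.26 at 72 h, beside -0.12 and -0.27 over all probes. Normexp gave -0.23 at 72 h and -0.10 for the mean of the times, beside -0.12 and -0.088 over all probes. The cause was not tested. Of the single member values, 121 of 679 changed sign under other settings and 83 of 672 with a pair left out. None of these was called on either side, so they count as moved values and not as reversed calls. Both totals include values that could not move. Leaving out a pair at 72 or 192 h does not touch an 18 h mean, and robust eBayes left every mean as it was. The shares therefore understate how often a value that could move changed sign. The dim filter removed no probe, and requiring all 4 pairs left 270 probes with Psma3 as the one member. Signal of 1.72 to 4.04 times background in the brighter dye channel limits what the members can show.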
